A study of Mus musculus with 8 samples.

Results

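Transcripts of the circadian clock were measured in striatum of mice aged to postnatal day 30, on 4 bead arrays labelled PGC-1α wild type and 4 labelled PGC-1α null, all on a C57BL/6 background. PGC-1α, encoded by Ppargc1a, is a transcriptional coactivator of mitochondrial genes that also coactivates ROR receptors at the Arntl promoter, shown in mouse liver and muscle. The 10 clock genes followed were Arntl and Clock, Per1, Per2 and Per3, Cry1 and Cry2, Nr1d1 and Nr1d2, and Dbp, taken by gene symbol from the deposited probe table. A probe entered when 4 or more of the 8 arrays gave it a detection p-value below 0.05. Of 16 probes with these symbols 13 entered, standing for 9 of the 10 genes, among 13413 probes and 10008 gene symbols kept in all. Each of the 13 was detected on all 8 arrays. The 1 probe of Cry1, a transcriptional repressor of the clock, was detected on 0 arrays, so Cry1 was not measured here and its level is not known. Another probe of Clock was detected on 0 arrays and another of Per2 on 2 arrays, and neither was kept.

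The labels name medium spiny neurons as the cell type, while the source is striatal tissue. The series title places the deletion in those neurons, whereas individual samples are labelled null; which of these holds, and what drove the deletion, the sources used here do not give. Of 10 listed marker genes of medium spiny neurons, 8 were matched and all 8 were detected on every array. The probe of Ppargc1a itself read 7.35, 7.22, 7.90 and 7.98 (log2) on wild-type arrays 1 to 4 and 7.30, 8.09, 8.10 and 7.43 on null arrays 1 to 4. Its difference was 0.12 (SE 0.23, limma adjusted p = 0.94). Which part of the gene was deleted the sources used here do not give, so this value does not test the labels, and every direction below rests on them. The arrays had mean raw intensities between 295 and 499 and between 13009 and 13910 detected probes each. The arrays of one group occupied consecutive positions of a single chip, so position and group cannot be told apart. The Y-linked gene Eif2s3y was detected on wild-type replicate 2 and null replicates 1, 2 and 4, that is, on 1 wild-type and 3 null arrays. Nothing in the labels ties each replicate to its own animal, and the p-values therefore cover only array-to-array spread, which may be technical.

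The mammalian clock is a delayed feedback loop of transcription. ARNTL (BMAL1) and CLOCK form a heterodimer that binds E-boxes and drives the Per, Cry, Nr1d and Dbp genes, and the PER and CRY proteins then return to the nucleus and repress that heterodimer. NR1D1 and NR1D2 (REV-ERBα and REV-ERBβ) close a second loop by repressing Arntl through ROR elements, so Arntl RNA peaks at about the opposite time of day to Nr1d1, Dbp and Per3. Striatal neurons run this clock, and dopamine and neuronal activity act on it. The sources used here do not give the time of day at which tissue was taken, so the place of an array in the daily cycle is not known and can only be read from the levels of genes of opposite phase.

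The promoter windows below, from RefSeq (GRCm38.p6, 250 bases before the start site to 50 after it, 5′ to 3′), are marked for the letters of elements known from clock genes. They are those of Arntl, which is known for its ROR elements, and of the period and REV-ERB genes discussed with it. Capitals mark every match, on either strand, to the E-box CACGTG, the E-prime box CACGTT, the D-box TTATGNAA bound by DBP and its relatives, the ROR element core AGGTCA, or the cyclic AMP response element core TGACG. No matches overlapped.
Arntl, second start site (chr7:113207261-113207560, + strand): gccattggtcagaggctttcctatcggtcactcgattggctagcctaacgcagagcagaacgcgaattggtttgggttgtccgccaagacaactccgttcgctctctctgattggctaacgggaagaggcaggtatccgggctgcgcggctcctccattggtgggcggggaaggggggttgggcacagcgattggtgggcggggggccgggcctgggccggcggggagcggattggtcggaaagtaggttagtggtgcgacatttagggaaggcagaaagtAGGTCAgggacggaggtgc
Per1, first start site (chr11:69098699-69098998, + strand): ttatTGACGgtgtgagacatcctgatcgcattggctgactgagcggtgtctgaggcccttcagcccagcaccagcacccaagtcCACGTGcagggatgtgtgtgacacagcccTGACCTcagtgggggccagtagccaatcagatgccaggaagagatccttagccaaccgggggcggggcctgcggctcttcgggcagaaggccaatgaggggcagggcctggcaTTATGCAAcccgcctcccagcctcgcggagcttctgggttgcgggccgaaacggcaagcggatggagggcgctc
Per1, second start site (chr11:69099902-69100201, + strand): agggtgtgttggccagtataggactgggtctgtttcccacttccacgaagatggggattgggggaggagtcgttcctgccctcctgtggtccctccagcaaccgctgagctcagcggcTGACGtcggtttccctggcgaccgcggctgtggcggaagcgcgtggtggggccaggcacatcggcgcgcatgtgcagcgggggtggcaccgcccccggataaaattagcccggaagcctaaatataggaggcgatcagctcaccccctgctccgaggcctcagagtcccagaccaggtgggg
Per3 (chr4:151044616-151044915, - strand): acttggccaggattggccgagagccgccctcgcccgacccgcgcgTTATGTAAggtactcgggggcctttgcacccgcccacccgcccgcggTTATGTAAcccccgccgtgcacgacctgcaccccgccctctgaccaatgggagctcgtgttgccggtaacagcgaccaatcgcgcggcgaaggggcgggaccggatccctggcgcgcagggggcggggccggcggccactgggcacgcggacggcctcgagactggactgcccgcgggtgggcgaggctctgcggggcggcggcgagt
Nr1d1 (chr11:98775328-98775627, - strand): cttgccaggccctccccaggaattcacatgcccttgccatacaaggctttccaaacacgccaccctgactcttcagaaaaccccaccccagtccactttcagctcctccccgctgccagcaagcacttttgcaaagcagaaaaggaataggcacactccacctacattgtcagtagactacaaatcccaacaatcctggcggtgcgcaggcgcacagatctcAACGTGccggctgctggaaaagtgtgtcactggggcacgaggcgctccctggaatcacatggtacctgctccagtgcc
Nr1d2 (chr14:18239057-18239356, - strand): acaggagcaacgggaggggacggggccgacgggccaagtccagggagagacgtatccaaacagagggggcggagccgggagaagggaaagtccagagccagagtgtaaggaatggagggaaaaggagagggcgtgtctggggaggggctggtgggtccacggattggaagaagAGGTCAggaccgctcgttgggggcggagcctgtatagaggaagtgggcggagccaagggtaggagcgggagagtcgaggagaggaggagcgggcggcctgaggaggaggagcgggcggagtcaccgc

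The Arntl window carried 1 exact match to the ROR element core AGGTCA, 32 to 37 bases after that start site. Only exact letters were sought, so an element that varies from them, such as one with AGGTTA, is not marked or counted. The other Arntl window in the table (chr7:113207215-113207514, + strand), which overlaps it, held no exact match and is not printed. This does not show that it lacks an ROR element. Per3 carried 2 D-boxes, at positions -205 to -198 and -158 to -151 from the start. Per1 carried an E-box at positions -166 to -161 from its first start site, a D-box and an ROR element core there, and a cyclic AMP response element core at both start sites. Nr1d1 carried an E-prime box and Nr1d2 an ROR element core. The Per3, Nr1d2 and Dbp windows held no E-box or E-prime box, so calling these genes E-box driven below does not rest on the windows. Of 32851 promoter windows in the table, the E-box was in 7.15%, the E-prime box in 4.68%, the D-box in 3.38%, the ROR element core in 16.3% and the cyclic AMP core in 20.8%. Windows were found for 9 of the 10 genes, with no entry for Per2, and 9 of 13 windows held a match. A match is a description of the letters, not of binding.

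Between the groups, no clock gene passed the test. On the log2 scale, 5 of the 9 genes had a higher mean in null arrays and 4 a lower one, with a median difference of 0.05 against -0.0043 over all 13413 kept probes. Differences ran from -0.39 (Per1) to 0.32 (Per2). With limma and Benjamini-Hochberg adjustment over all kept probes, 0 of the 9 genes and 0% of all probes were past an adjusted p of 0.05, and the members' adjusted p-values ran from 0.71 to 0.98. At an unadjusted p under 0.05 stood 1 of the 9 genes (Arntl), or 2 of the 13 probes, where the share over all probes was 6.9% (3.7% lower in null, as Arntl was, and 3.21% higher). The median SE of a member's difference was 0.17, and the 95% intervals of the other 8 genes included 0. In bulk tissue fewer cells of a type and less RNA per cell cannot be told apart.

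**Figure D1:**
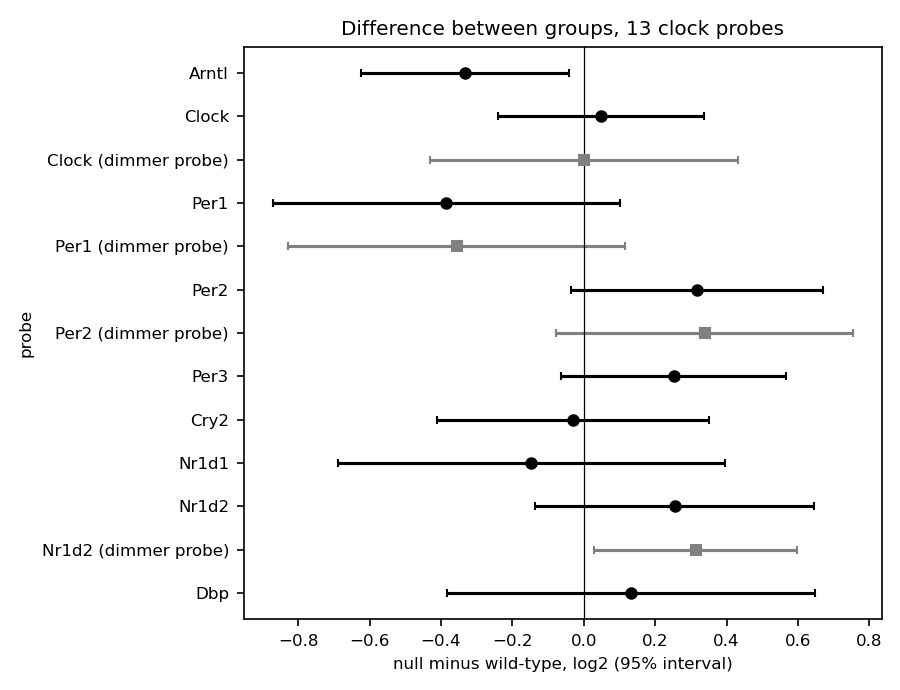
Difference between null and wild-type means (x axis, log2 units) with its 95% interval for each of the 13 clock probes (y axis). Black circles are the brighter or only probe of a gene and grey squares the dimmer one; the Arntl interval lies below 0 and that of the dimmer Nr1d2 probe above it, before any adjustment for the number of probes.

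In the positive limb, Arntl was the gene with the smallest p. Arntl (chromosome 7, 113178471 to 113314126) encodes BMAL1, the partner of CLOCK without which the loop stops. It read 8.94, 8.84, 8.73 and 8.89 (log2 intensity) on wild-type arrays 1 to 4 and 8.48, 8.31, 8.46 and 8.83 on null arrays 1 to 4. Null arrays 1, 2 and 3 lay below every wild-type array, and null array 4 lay within the wild-type range, so the groups overlapped. The means were 8.85 ± 0.09 (SD, n = 4) and 8.52 ± 0.22, a difference of -0.33 (SE 0.13, 95% interval -0.62 to -0.04, limma unadjusted p = 0.029, adjusted p = 0.71). With detection of Eif2s3y added to the fit, a choice made once the data had been seen, the difference was -0.35 and the limma unadjusted p 0.0505. With the level of Ddx3y, also Y-linked and chosen likewise, they were -0.37 and 0.137. Ddx3y read 9.64 to 10.59 on wild-type and 10.61 to 11.24 on null arrays, so a fit with it separates it poorly from the group. It read 10.59 on wild-type array 4, where Eif2s3y was not detected, and 10.52 on wild-type array 2, where Eif2s3y was.

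Clock, whose protein is the DNA-binding partner of BMAL1 and a histone acetyltransferase, gave no such difference. Its brighter probe (chromosome 5, 76209868 to 76305603) read 9.46, 9.64, 9.53 and 9.70 on wild-type and 9.51, 9.40, 9.85 and 9.75 on null arrays. The null arrays were both the highest and the lowest, and the difference was 0.05 (SE 0.13, 95% interval -0.24 to 0.34, adjusted p = 0.96). The dimmer probe gave a difference of 0.0015 (SE 0.20) and followed the brighter one only loosely over the arrays (Pearson's r of 0.49 between probes of the same gene).

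The 3 period genes, whose proteins are the repressors that set the length of the cycle, had differences of unequal sign. Per1 (chromosome 11, 69095108 to 69109965) read 9.10, 8.62, 8.53 and 8.99 on wild-type and 8.21, 7.93, 9.05 and 8.50 on null arrays. Null arrays 1 and 2 were the lowest and null array 3 was second only to wild-type array 1. The difference was -0.39 (SE 0.22, adjusted p = 0.75), and the second Per1 probe gave -0.36 (SE 0.22). It was -0.11 with Eif2s3y detection in the fit, and with the Ddx3y level it turned to 0.063.

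Per2 (chromosome 1, 91415977 to 91459351) lay the other way. It read 8.95, 8.41, 8.74 and 8.81 on wild-type and 9.13, 8.998, 9.35 and 8.71 on null arrays, with null arrays 1, 2 and 3 above all wild-type arrays and null array 4 inside their range. The difference was 0.32 (SE 0.16, 95% interval -0.04 to 0.67, adjusted p = 0.74), and its second probe gave 0.34 (SE 0.19). With Eif2s3y detection in the fit it was 0.52 (limma unadjusted p = 0.0047, adjusted p = 0.58), and with the Ddx3y level it was 0.70 (unadjusted p = 0.0139, adjusted p = 0.88). The paired probes of Per1 and of Per2 ran closely together (r of 0.94 and 0.97 over the 8 arrays), and the opposite signs of the 2 genes were seen with both probes of each.

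Per3 (chromosome 4, 150997018 to 151044707) read 5.42, 5.45, 5.91 and 5.56 on wild-type and 5.81, 6.09, 5.75 and 5.70 on null arrays. Wild-type array 3 lay above all null arrays but null array 2, and the other wild-type arrays lay below every null array. The difference was 0.25 (SE 0.14, 95% interval -0.06 to 0.57, adjusted p = 0.75). Its size depended on the treatment of the background, at 0.08 with no background correction, 0.15 with an offset of 50 and 0.37 on the authors' processed values, and it was 0.16 when null replicate 2 was left out.

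Cry2, the cryptochrome that could be measured (chromosome 2, 92403646 to 92434085), binds PER proteins and represses CLOCK and BMAL1. It read 7.18, 7.27, 7.24 and 7.003 on wild-type and 6.97, 7.69, 7.07 and 6.84 on null arrays. Null array 2 was the highest of all 8 and null array 4 the lowest, and the difference was -0.03 (SE 0.17, adjusted p = 0.98).

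By their brighter or only probe, the REV-ERB genes differed more within the wild-type group than between the groups. The dimmer Nr1d2 probe went the other way, with a wild-type SD of 0.21 and a group difference of 0.31. Nr1d1 (chromosome 11, 98767932 to 98775377) read 5.43, 5.96, 6.61 and 5.57 on wild-type and 5.78, 5.42, 5.58 and 6.21 on null arrays. Its 2 highest arrays were wild-type array 3 and null array 4, and the difference was -0.15 (SE 0.25, adjusted p = 0.92). Leaving out wild-type replicate 3 turned it to 0.09.

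Nr1d2 (chromosome 14, 18204056 to 18239106) read 8.44, 8.56, 9.30 and 8.61 on wild-type and 8.95, 9.04, 9.12 and 8.82 on null arrays. The null arrays lay close together, above wild-type arrays 1, 2 and 4 and below wild-type array 3. The difference was 0.25 (SE 0.18, adjusted p = 0.79), or 0.45 when wild-type replicate 3 was left out. The dimmer Nr1d2 probe read 5.32, 5.65, 5.80 and 5.68 on wild-type and 5.84, 6.03, 5.98 and 5.85 on null arrays, without overlap between the groups, a difference of 0.31 (SE 0.13, unadjusted p = 0.0333, adjusted p = 0.71). It was the 1 clock probe of 13 whose groups did not overlap, where 4.14% of all kept probes did not overlap and 1.54% were higher in null without overlap. The 2 Nr1d2 probes correlated at r of 0.78 over the arrays.

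Dbp, a PAR bZIP transcription factor that carries the E-box rhythm to D-box genes, had a wide spread in the wild-type group. It lies on chromosome 7 at 45705100 to 45710203, and it read 11.85, 12.01, 12.67 and 11.43 on wild-type and 12.19, 11.80, 12.50 and 11.999 on null arrays. Wild-type arrays 3 and 4 were the highest and the lowest of all 8, with every null array between them. The difference was 0.13 (SE 0.24, 95% interval -0.38 to 0.65, adjusted p = 0.92), and it was -0.06 without wild-type replicate 4 and 0.36 without wild-type replicate 3.

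**Figure D2:**
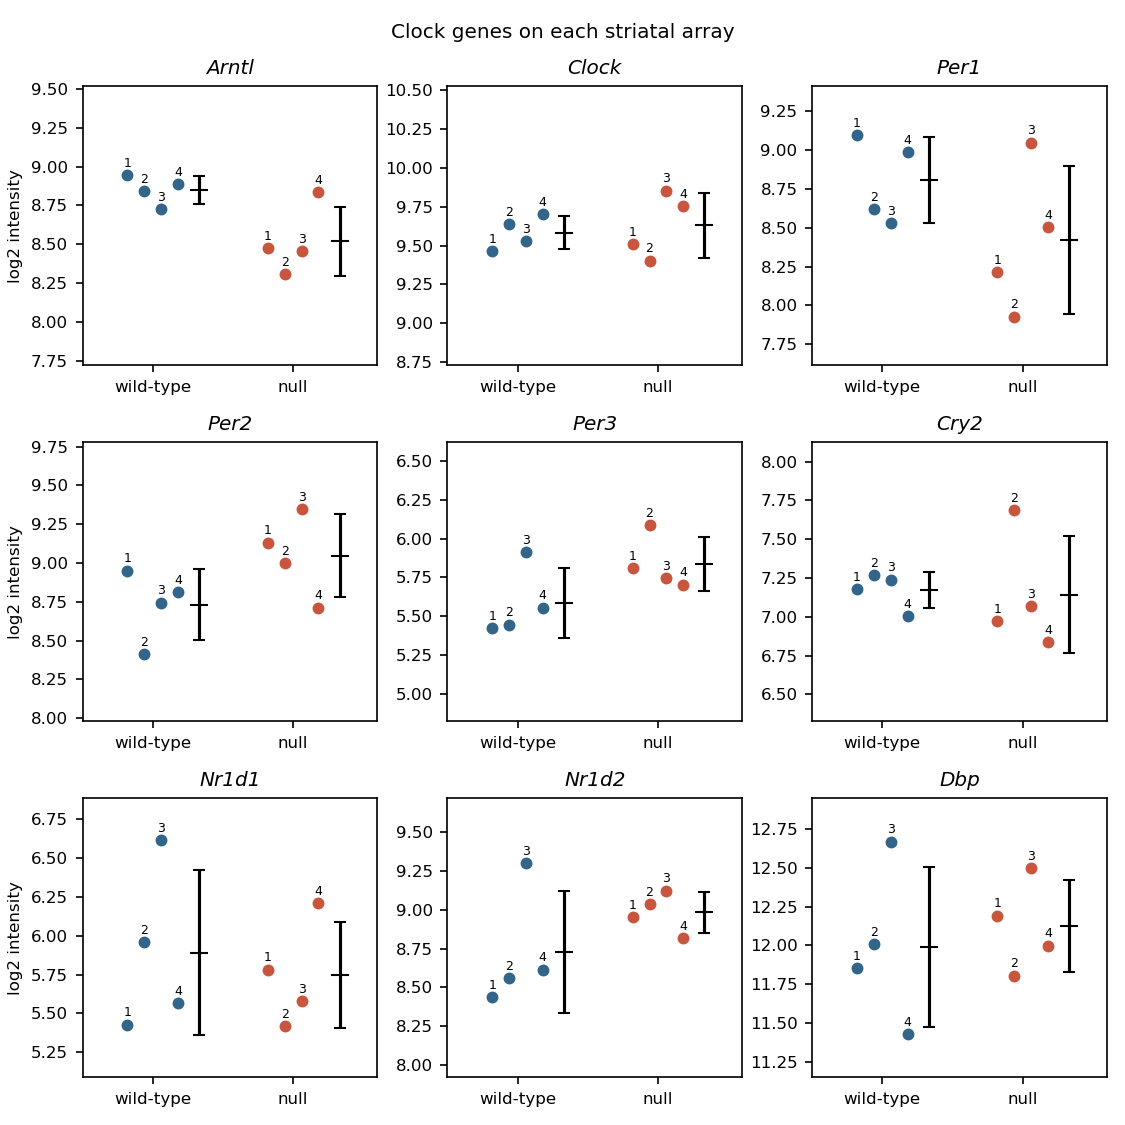
Log2 intensity (y axis, each panel spanning the same number of log2 units) of the 9 measured clock genes on the 4 wild-type and 4 null arrays, with replicate numbers beside the points and the group mean ± SD as bars. Arntl lies lower on null arrays 1 to 3, and wild-type array 3 is the highest for Nr1d1, Nr1d2 and Dbp.

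Spread within the groups was wide for some clock genes and not for others. The pooled within-group SD was 0.45 for Nr1d1, 0.42 for Dbp and 0.39 for Per1, against a median of 0.21 over all kept probes. These stood at the 96.6, 95.4 and 93.3 percentiles of all 13413 probes. Nr1d2, Cry2, Per2 and Per3 stood at 78.1, 75.3, 65.0 and 45.8, and the dimmer probes of Per2 and Nr1d2 at 83.9 and 27.2. The percentiles were not matched for level, and Nr1d1 read 5.42 to 6.61, near background. Between the brightest and the dimmest of the 8 arrays lay a factor of 2.36 for Dbp, 2.30 for Nr1d1 and 2.25 for Per1, on the scale of intensity plus the offset. Arntl and the brighter probe of Clock were at the 32.1 and 29.8 percentiles, with factors of 1.56 and 1.37 between their extreme arrays. The dimmer Clock probe was at the 86.6 percentile, with a factor of 1.81, so the low spread of Clock rests on the probe used. This is a description, since no test was made of it.

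The limbs were then read on each array. Each gene was centred on its own mean over the 8 arrays, and the mean of 6 E-box driven genes (Per1, Per2, Per3, Nr1d1, Nr1d2 and Dbp) was set against the mean of Arntl and Clock. On 6 of the 8 arrays the limbs lay on opposite sides of 0. The count was 4 of 8 with median centring, and also with the mean of all kept probes of each gene. It was 5 of 8 on the authors' processed values, and also with Cry2 added to the E-box driven genes. With wild-type replicate 4 left out and the genes centred again, it was 3 of the other 7. On wild-type arrays 1, 2 and 4 the E-box driven genes were low (-0.13, -0.16 and -0.16) and the positive limb was high (0.06, 0.10 and 0.15). Wild-type array 3 had the reverse order, with 0.30 for the E-box driven genes and -0.02 for the positive limb.

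Of the null arrays, array 1 had the same order as wild-type array 3, with 0.02 against -0.15. Null array 4 had the order of the other wild-type arrays, with -0.0005 against 0.15. On null arrays 2 and 3 both limbs lay on the same side, at -0.11 and -0.29 on array 2 and at 0.23 and 0.01 on array 3, in each case with the E-box driven genes above the positive limb.

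The E-box driven mean minus the positive limb mean was -0.18, -0.25, 0.32 and -0.31 on wild-type arrays 1 to 4 and 0.17, 0.18, 0.22 and -0.15 on null arrays 1 to 4. Each group thus held arrays of both orders, 3 to 1 one way in wild-type and 3 to 1 the other way in null. The group means were -0.11 ± 0.29 (SD, n = 4) and 0.11 ± 0.17, a difference of 0.21 that was smaller than the wild-type SD. It was 0.36 without wild-type replicate 3, the 1 wild-type array of the other order. No p-value is given for this score, because its genes were chosen with earlier results of these data known.

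**Figure D3:**
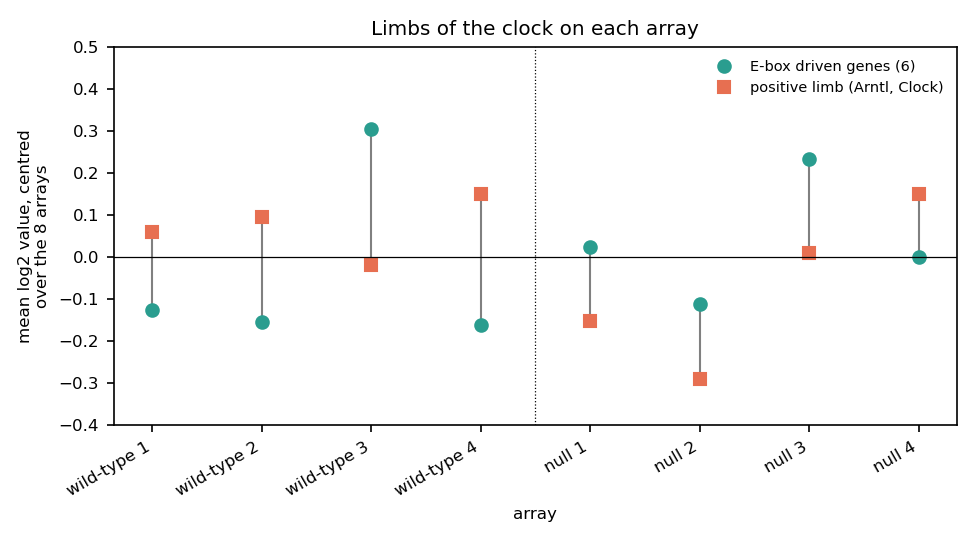
Mean centred log2 value (y axis) of the 6 E-box driven genes (circles) and of Arntl and Clock (squares) on each of the 8 arrays (x axis), joined by a line per array. Circles lie below squares on wild-type arrays 1, 2 and 4 and null array 4, and above them on the other arrays.

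Over all 8 arrays, Arntl ran against several genes of the other limb and Clock mostly did not, a contrast that depended on null replicates 2 and 3. Of the 7 pairs of Arntl with another member 5 had a negative Pearson's r over the 8 arrays, and of the 7 pairs of Clock 2 did. The strongest was Arntl with Per3, with r = -0.81 (exact permutation p = 0.0175, adjusted over the 14 pairs p = 0.25) and Spearman's rho = -0.88 (exact permutation p = 0.00724, adjusted p = 0.10). Without null replicates 2 and 3, the arrays farthest from the median of Arntl, r was -0.72, and after removal of the group means it was -0.70. Arrays rich in Arntl were thus poor in Per3 within the groups as well as between them, and the pair did not pass the adjustment. The same 2 arrays lay farthest from the median of Clock. Without them Clock had r of -0.01 with Per1, -0.52 with Per2, -0.10 with Per3 and -0.54 with Cry2. Its r was then -0.14 with Nr1d2, -0.44 with Dbp and 0.15 with Nr1d1. Arntl without them had r of 0.21 with Cry2, -0.26 with Nr1d1, 0.87 with Per1, -0.50 with Per2 and -0.53 with Dbp.

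Arntl with Nr1d2, its repressor's gene, had r = -0.68 (exact permutation p = 0.0702, adjusted p = 0.30) and rho = -0.81 (exact permutation p = 0.0218, adjusted p = 0.15), with r = -0.63 without the same 2 arrays. Arntl with Per2 had r = -0.64 (exact permutation p = 0.0907, adjusted p = 0.30) and rho = -0.55 (exact permutation p = 0.171, adjusted p = 0.55). With Per1 the sign was positive, with r = 0.61 (exact permutation p = 0.106, adjusted p = 0.30) and rho = 0.62 (exact permutation p = 0.115, adjusted p = 0.54). It was also positive with Nr1d1, a gene of opposite phase, at r = 0.25 (exact permutation p = 0.557, adjusted p = 0.78) and rho = 0.05. Dbp, likewise of opposite phase, gave r = -0.31 (exact permutation p = 0.449, adjusted p = 0.71) and rho = -0.36. Of the 14 cross-limb pairs 7 were negative, 1 was under an unadjusted p of 0.05 and 0 under an adjusted one. With median centring in place of quantile normalization only 3 pairs were negative.

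Among the 22 pairs on the same side of the loop, Per3 and Nr1d2 ran together most closely. Their r was 0.85 (exact permutation p = 0.00895, adjusted over the 22 pairs p = 0.20) with rho = 0.88 (exact permutation p = 0.00724, adjusted p = 0.16), and r was 0.93 without null replicate 2 and wild-type replicate 1. Nr1d2 and Dbp had r = 0.73 (exact permutation p = 0.0391, adjusted p = 0.29) and rho = 0.60 (exact permutation p = 0.132, adjusted p = 0.73), and r was 0.61 without wild-type replicates 1 and 3. Per1 ran against Per3, with r = -0.74 (exact permutation p = 0.0357, adjusted p = 0.29) and rho = -0.74 (exact permutation p = 0.0458, adjusted p = 0.50). That relation was at r = -0.36 without null replicate 2 and wild-type replicate 1 and so rests on those arrays. Arntl and Clock, averaged as the positive limb, had r = 0.18 (exact permutation p = 0.666, adjusted p = 0.86). Of the 22 pairs 9 were negative, and the median r was 0.17, against -0.14 over the 14 cross-limb pairs. None of the 22 pairs passed the adjustment.

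Per1 followed the immediate early genes, which neurons switch on within minutes of activity. In mouse, Per1 is itself inducible through cyclic AMP response elements. Over the 8 arrays Per1 correlated with the mean of 9 measured immediate early genes at r = 0.91 (exact permutation p = 0.0026, adjusted over 18 relations p = 0.0469) and rho = 0.88 (exact permutation p = 0.00724, adjusted p = 0.13). Without wild-type replicate 1 and null replicate 2 r was 0.79, and with the group means removed it was 0.88. Members and lists were chosen with earlier results of these data known, so the p-values of these relations are descriptive and not an independent test. Of the 12 listed immediate early genes, Nr4a1, Ier2 and Btg2 were detected on 0 arrays. The immediate early mean was 0.83, 0.11, -0.56 and 0.65 on wild-type arrays and -0.21, -0.90, 0.35 and -0.27 on null arrays, so it was high where Per1 was high. Per3 ran against it, with r = -0.86 (exact permutation p = 0.00764, adjusted p = 0.0688) and rho = -0.83 (exact permutation p = 0.0154, adjusted p = 0.13), and r was -0.66 without those 2 arrays. Of 9 immediate early genes 8 had a lower mean in null arrays, with a median of -0.56.

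**Figure D4:**
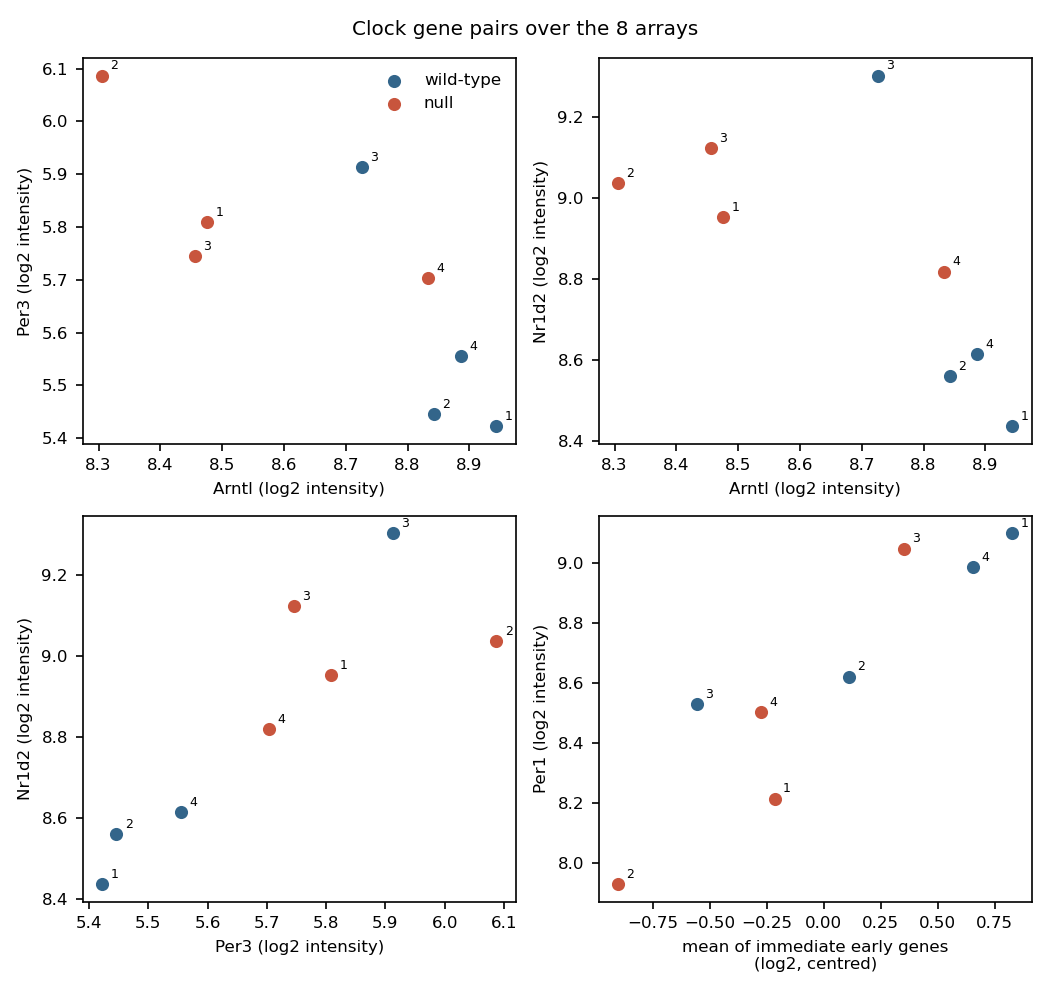
Log2 intensity of clock gene pairs over the 8 arrays, with replicate numbers beside the points: Per3 and Nr1d2 against Arntl, Nr1d2 against Per3, and Per1 against the centred mean of the immediate early genes. The first pair of panels slopes down and the other pair up, over wild-type arrays (blue) and null arrays (red) together.

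Marker genes of other cells differed between these arrays. Of the 10 cortical excitatory neuron genes 7 were kept and all 7 had a higher mean in null arrays, with a list mean between -1.25 and 0.14 on the wild-type arrays and between -0.26 and 1.15 on the null ones. It was highest on null array 2, where Arntl, Clock, Per1 and Nr1d1 were at their lowest and Per3 and Cry2 at their highest. Neurod6 of that list was detected on 0 arrays. Per1 correlated with this mean at r = -0.77 (exact permutation p = 0.0205, adjusted p = 0.12) and rho = -0.81 (exact permutation p = 0.0218, adjusted p = 0.13), and at r = -0.35 without wild-type replicate 1 and null replicate 2, on which the relation rests. With the cortical mean as a covariate the group differences of Per1 (-0.08), Arntl (-0.27, limma unadjusted p = 0.132) and Per3 (0.15) were smaller than without it. Those of Per2 (0.48, limma unadjusted p = 0.0248, adjusted p = 0.91), Dbp (0.34), Cry2 (-0.17), Clock (0.08) and Nr1d1 (-0.16) were larger, and that of Nr1d2 was 0.23.

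The medium spiny neuron mean was lower in null arrays for 8 of 8 genes and lay between -0.03 and 0.37 on the wild-type arrays and between -0.50 and 0.16 on the null ones, with a median gene difference of -0.25. The myelinating oligodendrocyte mean (9 of 10 genes kept) was lowest on wild-type array 3, at -0.94, against 0.08 to 0.16 on the other wild-type arrays and -0.08 to 0.34 on null arrays. That is the array on which Nr1d1, Nr1d2 and Dbp were highest. All 9 kept oligodendrocyte genes had a higher mean in null arrays, with a median gene difference of 0.33. Higher in null were 8 of 10 astrocyte, 6 of 10 microglial and 0 of 9 endothelial genes, and these list means lay between -0.25 and 0.21. The part of these cells in the clock gene values was not tested beyond the cortical covariate.

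Other genes of the clock network were read from lists of 29 genes, of which 19 had a kept probe, 8 had none and 2 were not matched. Where a gene had several kept probes, as Usp2 and Btrc did (3 each), only the brightest was read, and agreement between probes was not tested. Of the 19, 15 had a lower and 4 a higher mean in null arrays, with a median of -0.13, and 0 passed the test. Among the E-box activators 1 of 2 genes was kept, Npas2, a relative of Clock that is strongly expressed in striatum, with a difference of -0.26 (SE 0.20). The 2 kept ROR activators, which drive Arntl in opposition to the REV-ERB proteins, differed by -0.04 (Rora) and 0.16 (Rorb). The 2 kept E-box repressors, Bhlhe40 and Ciart, differed by -0.23 and -0.08, and the 2 kept D-box factors, Tef and Hlf, by 0.35 and -0.13. Of 6 kinases, ligases and partners 5 were lower, among them Btrc, a ubiquitin ligase subunit that marks PER proteins for destruction, at -0.23 (SE 0.13).

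Of 6 output genes 5 were lower in null arrays. Leo1, a subunit of the PAF1 elongation complex, read 7.27, 7.23, 7.22 and 7.04 on wild-type and 6.83, 6.67, 7.03 and 6.81 on null arrays. Its groups did not overlap, the 1 such case among the 19. Of all kept probes 4.14% did not overlap in either direction, and 2.59% were lower in null without overlap. Leo1 differed by -0.35 (SE 0.12, limma unadjusted p = 0.0123, adjusted p = 0.70). Nampt, which makes the NAD precursor in a clock-driven cycle, differed by -0.29 (SE 0.14), and Usp2, a deubiquitinating enzyme, by -0.33 (SE 0.17, adjusted p = 0.74).

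On wild-type array 3, 9 of these 19 genes lay above and 10 below their own mean, and 4 (Ciart, Gsk3b, Usp2 and Klf9) were at their highest of the 8 arrays. Null array 2 held the lowest value for 9 of the 19. The genes given next were chosen after their values were seen. Ciart, an E-box driven repressor of the clock, read 8.20 there, against 7.05 to 7.45 on the other wild-type arrays and 7.16 to 7.62 on null arrays. Usp2 read 10.18 there, against 9.36 to 9.77 on the other wild-type arrays and 9.19 to 9.48 on null arrays. Tef, a D-box factor like Dbp, read 9.73 there and 9.83 and 9.91 on null arrays 2 and 3, the 3 highest of the 8. Timeless lay the other way, with its lowest value on wild-type array 3 (4.89, against 5.10 to 5.43 on the other wild-type arrays and 5.09 to 5.64 on null arrays).

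**Figure D5:**
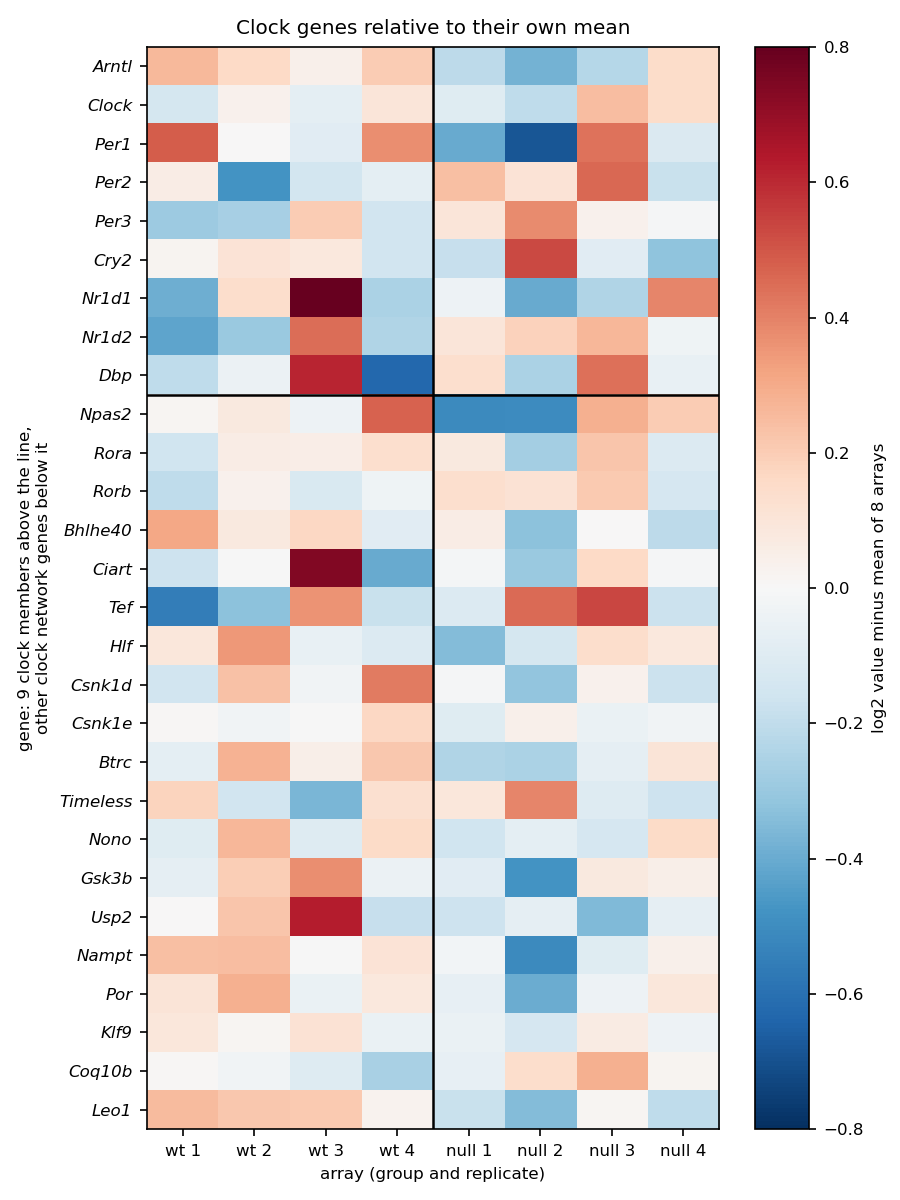
Log2 value of each gene minus its mean over the 8 arrays (colour) for the 9 clock members and 19 other clock network genes (rows) on each array (columns; wt, wild-type). Nr1d1, Nr1d2, Dbp, Ciart and Usp2 are high on wild-type array 3, on which 10 of the 19 other network genes lie below their mean, and Arntl is low on null arrays 1 to 3.

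The genes whose pattern was most like the E-box driven mean were ranked over 9999 non-member genes by Pearson's r across the 8 arrays, as a description only. Highest were Gabbr1, a GABA-B receptor subunit (r = 0.96), the orphan receptor gene Gpr135 (0.96), Lpin1, a phosphatidate phosphatase (0.92), Wdr33 (0.91) and Crcp (0.90). Ciart, a known E-box target, ranked 15 with r = 0.87, and Tef ranked 309 with r = 0.66. Of the 19 other network genes 11 had a positive and 8 a negative r, among the latter Timeless (-0.65, rank 9633), Nono (-0.54) and Csnk1e (-0.46), while Usp2 ranked 2477, Bhlhe40 3167 and Npas2 4895. Lowest were the sialyltransferase gene St6gal1 (r = -0.96), Dpysl3 (-0.94), Eif4g2 (-0.93), the axon guidance gene Slit2 (-0.93) and Gsta4 (-0.92). None of these 10 genes passed the limma test between the groups, with differences from -0.10 to 0.15 and adjusted p-values of 0.84 to 0.99.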

How the data were processed

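Striatal RNA of 4 wild-type and 4 null samples was hybridised to Illumina mouse bead arrays. The authors deposited bead intensity averaged per probe, with a detection p-value for each array, per the file headers; GenomeStudio, of no stated version, appears in the submitters' processing notes. These deposited intensities are linear and not normalized between arrays. A second deposited table holds processed intensity values (median 14.9 to 15.0 per array, minimum -18.4, about 23.1% below 0), made by a method the sources used here do not give. It served as an alternative, with values under 16 set to 16 before log2.

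Raw values were processed with neqc (offset 16, quantile normalization, log2) in limma 3.58.1 under R 4.3.3. Probes with a detection p under 0.05 on at least 4 arrays were kept, 13413 of 25697 (52.2%). Null minus wild-type was fitted with lmFit and eBayes, as a two-sided test, and p-values were adjusted (Benjamini-Hochberg) across the kept probes. For genes with several kept probes the brightest was used. The other probes are reported for the clock members only. Pearson and Spearman correlations over the 8 arrays have exact two-sided permutation p-values over all orderings. The fit was tested on simulated data. The number of arrays limits the precision.

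Genes named are the 10 members, of the other clock network lists each gene without overlap and the 4 with the smallest p, others that illustrate a list, and the 5 genes most and least like the E-box driven mean. Genes that illustrate a list were chosen after their values were seen. The members and lists were chosen with earlier results of these data known. Gene symbols come from the array's design, and Arntl is also called Bmal1. Bhlhe40 and Ciart are listed in the table as Bhlhb2 and Gm129. The labels state no pairing by replicate number, and the arrays were fitted as unpaired.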

Additional observations from a re-analysis of the deposited data

Results flagged for a closer look

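In 3 of 32 checks of a value within a group of 4 arrays, 1 array lay farther from the others than Dixon's 95% critical value of 0.829 allows; chance gives about 1 in 20. The E-box driven mean was 0.30 on wild-type array 3 and -0.16 to -0.13 on the other wild-type arrays. The E-box driven mean minus the positive limb mean was -0.15 on null array 4 and 0.17 to 0.22 on the other null arrays. The dimmer of the kept Per2 probes read 7.60 on wild-type array 2 and 8.21 to 8.28 on the other wild-type arrays. The brighter Per2 probe was also at its lowest on that array.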

How the results depend on the processing

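In all 21 alternative settings 0 clock genes passed the limma test where it was run, with a lowest adjusted p of 0.57 for any member (Arntl without null replicate 4), and 0 of all probes passed; 0 to 3 members stood at an unadjusted p under 0.05, the 3 without wild-type replicate 3. Arntl kept its sign throughout (-0.44 to -0.27 without 1 array, -0.37 to -0.26 otherwise), as did Per2, Per3 and Nr1d2. With 1 array left out, Clock ran from -0.027 to 0.12, Per1 from -0.59 to -0.22, Cry2 from -0.21 to 0.071, Nr1d1 from -0.30 to 0.094 and Dbp from -0.056 to 0.36, so Clock, Cry2, Nr1d1 and Dbp changed sign. The limb difference ran from 0.14 to 0.36, the arrays with limbs on opposite sides from 3 (without wild-type replicate 4) to 7, and the negative cross-limb pairs from 7 to 10. The level of the Y-linked Ddx3y was added to the fit, a choice made once the data had been seen. The limb difference was then 0.47, Per2 was 0.70, Dbp was 0.63, Per1 turned to 0.063 and Cry2 to 0.0054. That level did not overlap between the groups, so the fit separates it poorly from the group. With detection of Eif2s3y in the fit, the limb difference was 0.30 and Per1 was -0.11. Eif2s3y was also chosen then, because the Ddx3y probe was detected on all 8 arrays. With median centring 3 cross-limb pairs were negative, and the limbs lay on opposite sides on 4 of the 8 arrays. The causes were not tested. Cry1 could not be added to the score, as planned, since it was not detected, so Cry2 alone was. The replicate block left the limb difference at 0.21 and the count of members at 0. Correlations of same-numbered deviations were 0.09, -0.0037, 0.23 and 0.05. For wild-type arrays 1, 3 and 4 the same-numbered null array was the closest match, and for wild-type array 2 it was null array 4. Whether the numbers pair the arrays is thus not settled. Probes near background limit Per3, Nr1d1 and the dimmer Nr1d2 probe, since the lowest detected probes read 4.78 to 4.93.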
